A study of Mus musculus with 9 samples.

Results

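Gpr3, Gpr6 and Gpr12 are a small family of orphan class A G protein-coupled receptors, and their signal was followed in mouse cortical neurons that had been depolarised or disinhibited for 6 h. All probes whose identifier maps to one of these 3 genes were taken, which gave 4 of the 41174 probes on the array: 1 for Gpr6, 2 for Gpr12 and 1 for Gpr3. The family was chosen by the log2 difference between Bic and control, in which Gpr6 is lower than any other gene tested, so the differences between Bic and control, and all values of Gpr6, are given as a description, with no test. Gpr6 and Gpr12 passed the filter on dim probes and are 2 of the 14062 genes tested, while the Gpr3 probe was too dim for the main test.

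Cells came from C57BL/6 embryos at day 15 and were kept for 12 days in culture. The KCl group was given 50 mM potassium chloride for 6 h, the Bic group was given 25 µM bicuculline for 6 h, and the control group had no treatment, with 3 arrays in each group. Potassium chloride depolarises all excitable cells in the dish, and bicuculline blocks GABA-A receptors and so releases the network from inhibition. All are primary cultures with no transgene named in the labels, and which cells other than neurons they held is not stated there.

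The 3 receptors share an unusual property: they signal through the stimulatory G protein Gs and raise cyclic AMP without any added ligand. Gs activates adenylyl cyclases, the enzymes that make cyclic AMP, which in turn acts on protein kinase A and Epac until phosphodiesterases break it down. In the brain Gpr6 is best known from striatal projection neurons of the indirect pathway, Gpr3 and Gpr12 are expressed in other forebrain neurons, and Gpr3 also holds mouse oocytes in meiotic arrest, a role described for Gpr12 in rat. Gpr3 is further known as a modulator of gamma-secretase, which cuts the amyloid precursor protein.

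The genes lie on 3 chromosomes and all are on the minus strand of the RefSeq annotation of build GRCm38.p6. Gpr6 spans chr10:41069977-41072290, Gpr12 spans chr5:146582150-146586465 and Gpr3 spans chr4:133209340-133212536. The windows from 250 bases before to 50 bases after an annotated start are printed because many activity-regulated genes carry cyclic AMP response elements (CRE) or AP-1 elements near their start. All 3 genes were found in the RefSeq promoter table, Gpr12 with 2 windows. Capitals mark matches to the CRE TGACGTCA, to its half-site TGACG or to the AP-1 element TGANTCA, searched on both strands, and each sequence runs 5′ to 3′ on the gene's strand.
Gpr6, chr10:41072241-41072540: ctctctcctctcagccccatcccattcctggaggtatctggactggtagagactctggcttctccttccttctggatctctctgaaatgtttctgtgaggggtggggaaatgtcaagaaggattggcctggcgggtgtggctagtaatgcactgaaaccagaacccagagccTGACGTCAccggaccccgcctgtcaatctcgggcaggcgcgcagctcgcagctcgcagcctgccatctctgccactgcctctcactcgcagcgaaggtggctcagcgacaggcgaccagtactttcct
Gpr12 first window, chr5:146585190-146585489: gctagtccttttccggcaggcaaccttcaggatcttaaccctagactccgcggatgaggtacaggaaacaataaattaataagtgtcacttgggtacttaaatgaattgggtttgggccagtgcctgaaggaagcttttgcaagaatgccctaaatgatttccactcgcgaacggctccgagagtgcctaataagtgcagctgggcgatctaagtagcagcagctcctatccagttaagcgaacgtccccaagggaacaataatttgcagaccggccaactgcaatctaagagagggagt
Gpr12 second window, chr5:146584355-146584654: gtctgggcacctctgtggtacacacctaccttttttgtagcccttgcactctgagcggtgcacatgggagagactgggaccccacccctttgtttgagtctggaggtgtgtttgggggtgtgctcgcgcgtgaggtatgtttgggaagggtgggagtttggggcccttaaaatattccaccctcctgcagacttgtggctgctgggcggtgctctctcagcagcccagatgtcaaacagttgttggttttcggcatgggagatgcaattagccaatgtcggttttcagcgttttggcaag
Gpr3, chr4:133212487-133212786: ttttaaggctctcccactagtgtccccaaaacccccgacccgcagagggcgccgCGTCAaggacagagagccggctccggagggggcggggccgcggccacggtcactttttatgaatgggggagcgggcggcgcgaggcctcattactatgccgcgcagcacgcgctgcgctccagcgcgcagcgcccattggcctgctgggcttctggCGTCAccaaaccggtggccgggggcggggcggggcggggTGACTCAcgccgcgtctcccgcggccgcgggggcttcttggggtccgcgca

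The Gpr6 window held 1 whole CRE, whose first base lies 78 bases before the start, and its 2 half-site matches are the 2 arms of that element. Neither Gpr12 window held a match to any of the 3 motifs. Both windows lie inside the span given for Gpr12, so the sequence at the 5′ end of that span, base 146586465, was not searched. The Gpr3 window held 2 half-sites on the opposite strand, beginning 196 and 40 bases before the start, and 1 AP-1 match, TGACTCA, which begins 1 base before it. Of the 32851 RefSeq windows of the same length, 1.79% hold the whole CRE, 20.8% a half-site and 7.81% an AP-1 match, and every whole CRE contains the half-site. These matches are letters in a window and were not set against any measure of binding.

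Signals are Agilent processed intensities. For comparison between arrays, log2 signals were taken relative to each array's 75th percentile, which ran from 1586 to 3087 units over the 9 arrays. Replicate arrays correlated at 0.995 to 0.998 and the median SD between them was 0.06 on the log2 scale. The arrays sat on 3 slides: the first held control 1 and 2 with Bic 1 and 2, the second held KCl 1 and 2, control 3 and Bic 3, and the third held KCl 3. Treatment moved much of the transcriptome: limma called 71.8% of genes between KCl and control, 44.4% between Bic and control and 64.9% between KCl and Bic, at an adjusted p under 0.05. Genes called higher were 35.8% in KCl and 17.4% in Bic. Of the 8 genes of an activity panel, 7 rose and Egr1 fell under KCl, while 6 rose and Arc and Egr1 fell under Bic. Fos was 4.47 ± 0.04 log2 units higher in KCl and 2.76 ± 0.04 higher in Bic, and the effector gene Bdnf 3.19 ± 0.03 and 2.90 ± 0.03 higher (SE, n = 3 arrays a group). The other panel genes differed from control by 5.30 in KCl and 4.14 in Bic for Fosb, 4.32 and 0.86 for Npas4, 2.25 and 2.13 for Nptx2, 1.86 and 0.66 for Nr4a1, 0.71 and -0.65 for Arc, and -0.63 and -0.59 for Egr1.

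Gpr6 was low in both treated groups. Its probe, A_52_P487508, read 87.4, 84.8 and 61.8 units on the KCl arrays, 27.8, 30.5 and 44.8 units on the Bic arrays, and 687, 417 and 593 units on the control arrays. No array of 1 group overlapped with any of another: control was highest, KCl intermediate and Bic lowest. Of all genes, 37.6% were lower without overlap in KCl than in control, 34.8% lower in Bic than in control and 39.6% higher in KCl than in Bic, and since the family was chosen on such values the count carries no weight. The probe was well above background on all 3 KCl and all 3 control arrays, but on only 1 of the 3 Bic arrays, Bic 3. On the scaled log2 axis the levels were -4.40 ± 0.24 in KCl, -5.85 ± 0.29 in Bic and -2.14 ± 0.03 in control (SD, n = 3 each). The control arrays were thus within a few hundredths of each other once scaled, although their raw signals differed, and the treated arrays spread more.

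The log2 difference of Gpr6 from control was -2.26 in KCl, 4.79-fold lower. In Bic the signals as measured gave -3.71, but 2 of the 3 arrays were not well above background. With each Bic signal raised to the lowest signal so marked on its array where it was dimmer, Gpr6 was 12.7-fold lower in Bic. This is not a bound, since Bic 2, though not well above background, already read above that floor. No other gene tested had a lower measured difference in Bic, where the next, Nod2, stood at -2.59. With normexp background correction Gpr6 was still the lowest, and without the filter on dim probes 1 gene was lower. Under KCl, 8 genes were lower by more than Gpr6, against 786 with plain normexp. Between the treatments, Gpr6 was 1.45 log2 units higher in KCl than in Bic as measured, and 2.64-fold higher with the same floor. The KCl and Bic values share the 3 control arrays. The size of these differences depends on the background correction at such dim signals. Plain normexp gave -0.64 for KCl minus control, with an SE of 0.62, nearly as large as the difference. With normexp leaving out spots dimmer than their local background, chosen after seeing the data, they were -1.46 for KCl minus control, -2.27 for Bic minus control and 0.81 for KCl minus Bic. Fewer cells that make a transcript and less of it per cell cannot be told apart in these cultures.

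The pattern was the same within slides. On the second slide the log2 difference of Gpr6 was -2.11 for KCl minus control, -3.36 for Bic minus control and 1.25 for KCl minus Bic. On the first slide, with 2 arrays of each group, it was -3.88 for Bic minus control. The plot of scaled signals shows every array.

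**Figure D1:**
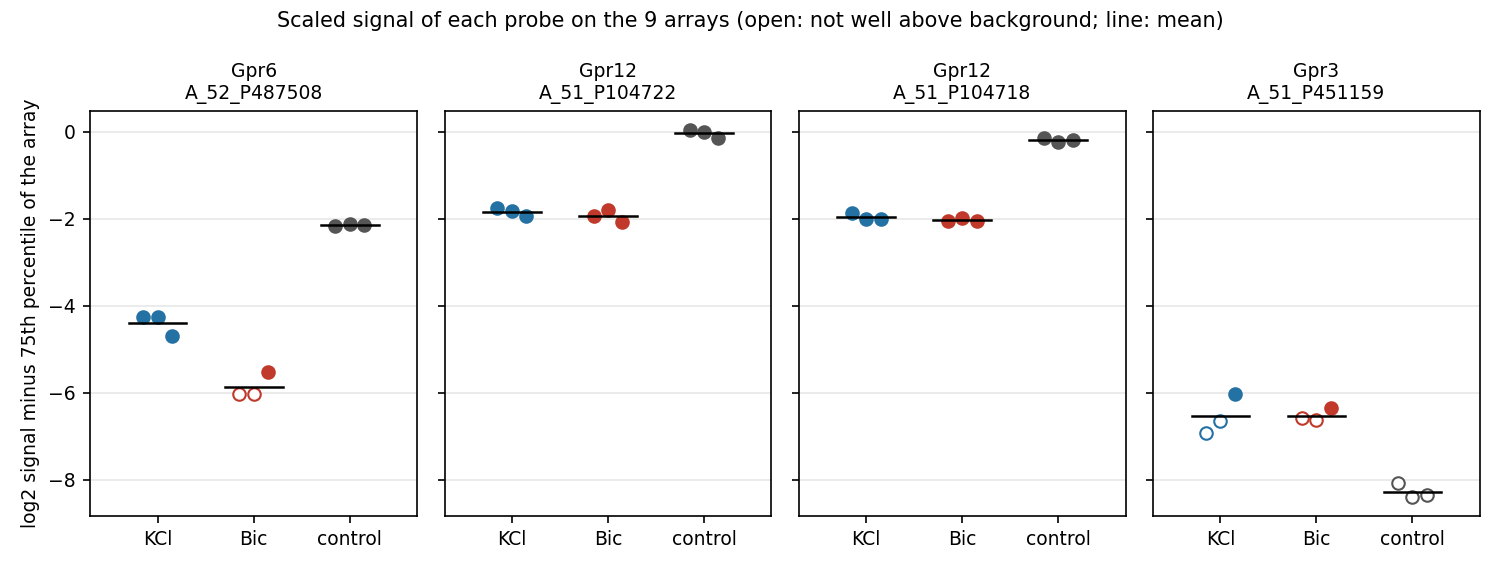
Scaled log2 signal (log2 signal minus the array's 75th percentile) of the 4 probes on the 9 arrays, with KCl, Bic and control from left to right in each panel, a point for each array and a line at the group mean. Open points were not marked well above background. Gpr6 is lowest in Bic, both Gpr12 probes are lower in KCl and Bic than in control, and the Gpr3 points lie below -6 in all groups.

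Gpr12 was also low in both treated groups, and to about the same level in each. Its brighter probe, A_51_P104722, read 498, 461 and 413 units in KCl, 470, 574 and 488 units in Bic, and 3178, 1803 and 2400.5 units in control. Its other probe, A_51_P104718, read 462, 408 and 397 units in KCl, 434, 503 and 496 units in Bic, and 2787, 1534 and 2297 units in control. Both probes were well above background on all 9 arrays. The treated arrays lay below every control array, and the KCl and Bic arrays overlapped.

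Gpr12 fell by 1.81 ± 0.08 log2 units in KCl against control (SE, n = 3 arrays a group), with a 95% interval of -2.00 to -1.62 and an adjusted p of 5.11e-07 by limma. This is a 3.50-fold lower level. The background for this call is high, since 36.0% of all genes fell under KCl, and 25 genes were lower by more than Gpr12 (6 to 52 over the alternatives). The other probe gave a fall of 1.76 ± 0.05, with an adjusted p of 6.7e-08 by limma among 27780 probes. Within the second slide the 2 probes gave log2 differences of -1.65 and -1.73 for KCl minus control.

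In Bic, the log2 difference of Gpr12 from control was -1.90 by its brighter probe, or 3.74-fold lower. By the other probe it was -1.84, or 3.57-fold lower. The brighter probe gave -1.89 on the first slide and -1.93 on the second. In Bic, 27.0% of all genes were called lower, and 8 genes were lower by more than Gpr12. The distributions of all genes show where both receptors stand.

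**Figure D2:**
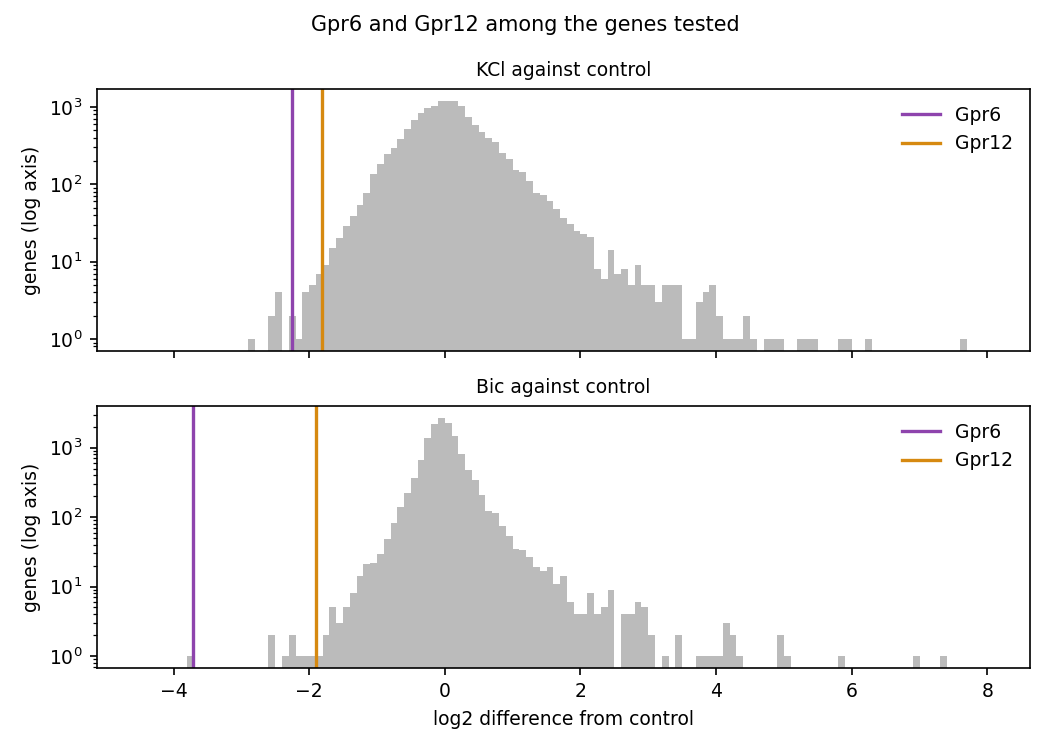
Number of genes (log axis) by log2 difference from control, for KCl above and Bic below, over the 14062 genes tested; vertical lines mark Gpr6 and Gpr12. Gpr6 stands at -2.26 in KCl and -3.71 in Bic, and Gpr12 at -1.81 in KCl and -1.90 in Bic, all in the lower tail.

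The treatments could not be told apart for Gpr12 in the main test. Its log2 difference between KCl and Bic was 0.10 ± 0.08 (SE), with a 95% interval of -0.09 to 0.29 and an adjusted p of 0.314 by limma. The second probe gave 0.08, with an adjusted p of 0.192 by limma among all probes. With slide as a block the difference was 0.27 with an adjusted p of 0.0154 by limma, and within the second slide it was 0.28 by the brighter probe and 0.12 by the other.

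Gpr3 was at the limit of detection and went the other way. Its probe, A_51_P451159, read 13.8, 16.2 and 24.2 units in KCl, 18.8, 20.2 and 25.0 units in Bic, and 11.5, 5.35 and 8.06 units in control. It was well above background on 1 of 3 KCl arrays (KCl 3), on 1 of 3 Bic arrays (Bic 3) and on no control array. All treated arrays read above all control arrays, as 37.2% of tested genes did in KCl and 22.1% in Bic, and KCl and Bic overlapped. The lowest signal marked well above background lay between 14.8 and 56.0 units depending on the array. Set against that floor the treated means gave no fold above 1, and the probe entered no main test. A fit without the filter on dim probes gave log2 differences from control of 1.74 in KCl and 1.75 in Bic. With no control array well above background, no fold is read from them.

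Gpr12 was thus detected on every array, Gpr6 on every array but 2 of the Bic group, and Gpr3 on 2 arrays of 9. Between-probe levels are not compared, since a probe's signal depends on its sequence.

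Genes that followed the receptors across the 9 arrays were sought among 1497 genes whose group means spanned at least 1 log2 unit. Nearest to Gpr6 by Pearson correlation were Ovol2 (0.996), Tnfaip3 (0.993), Ccbe1 (0.989), Ipcef1 (0.984) and Foxo6 (0.983). Tnfaip3 encodes an inhibitor of NF-kappa-B signalling, and Ovol2 and Foxo6 are transcription factors. All 5 were lower in Bic than in KCl, which comes with choosing them by correlation with Gpr6. Ovol2, the nearest, differed from control by -1.14 log2 units in KCl and -1.78 in Bic. Nearest to Gpr12 were Dact2 (0.994), Cbfa2t3 (0.992), Rxfp3 (0.992), Fam184b (0.991) and Wnt9a (0.991). Dact2 modulates Wnt and TGF-beta signalling, Wnt9a is a Wnt ligand, and Rxfp3 is the receptor of relaxin-3. Dact2 differed from control by -1.68 log2 units in KCl and -1.86 in Bic, and Fam184b by -1.75 and -1.65. Gpr6 and Gpr12 correlated with each other at 0.925. The 9 arrays fall into 3 groups, so these values mainly order genes by their group means.

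The genes beside the 3 receptors are not ranked against Gpr6, since the family was chosen on Gpr6 as the lowest gene in Bic. Beside Gpr6, Fig4, 116 kb away, fell by 0.51 log2 units in KCl and by 0.40 in Bic. Cdc40, also beside Gpr6, fell by 0.20 and 0.22 (0.15 higher in KCl with plain normexp). In Bic, Cdc40 did not pass with normexp (adjusted p = 0.718 by limma) or spike-in scaling (adjusted p = 0.224 by limma). Nor did Fig4 in Bic with normexp (adjusted p = 0.116 by limma). Wasf1, a regulator of actin branching that lies 131 kb from Gpr6, fell by 0.36 in Bic and differed by -0.12 in KCl, which did not pass the main test. In KCl it did pass with spike-in scaling (-0.35, adjusted p = 0.00757 by limma) and quantile normalisation (-0.15, adjusted p = 0.0361 by limma). In Bic it did not pass with normexp (adjusted p = 0.207 by limma). Beside Gpr3, Cd164l2 rose by 0.31 in KCl and 0.28 in Bic, but in KCl it did not pass with slide as a block (0.22, adjusted p = 0.126 by limma) or spike-in scaling (0.08, adjusted p = 0.506 by limma). In Bic it did not pass with normexp (adjusted p = 0.745 by limma) or spike-in scaling (adjusted p = 0.0866 by limma). Also beside Gpr3, Wasf2, 9.59 kb away, differed by 0.09 and 0.10 and Map3k6 by 0.12 and -0.08 without passing. Beside Gpr12, Usp12 differed by 0.08 and -0.03 without passing, and Rpl21 rose by 0.50 in KCl and differed by 0.04 in Bic. The Rpl21 rise did not pass with normexp (adjusted p = 0.0839 by limma), with spike-in scaling (adjusted p = 0.0659 by limma), or without KCl 1 or KCl 2. The third Wasf gene, Wasf3, is on the same chromosome as Gpr12. It was 0.32 higher in KCl with an adjusted p of 0.0441 by limma, which did not pass with slide as a block (0.16, adjusted p = 0.139) or a replicate block (adjusted p = 0.054), and its difference was -0.0075 with quantile normalisation. In Bic it differed by -0.20, which did not pass in the main test but did with slide as a block (adjusted p = 0.0469 by limma). Ahdc1, Ak9, Gm3409 and Gm3415 were not measured.

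Calls in the pathway below the receptors are to be read beside the 71.8% of all genes called in KCl and the 44.4% called in Bic. Of 10 measured genes for Gs proteins and adenylyl cyclases, 2 rose and 4 fell in KCl, and 1 rose and 5 fell in Bic (60% called in each), with median log2 differences of -0.00 and -0.16 against 0.02 and -0.03 over all genes. The calcium-stimulated cyclase Adcy8 rose by 0.82 ± 0.05 in KCl and 1.06 ± 0.05 in Bic (SE, n = 3 arrays a group). Adcy3 fell by 0.79 ± 0.07 and 0.50 ± 0.07, Adcy9 by 0.59 ± 0.06 and 0.38 ± 0.06, Adcy2 by 0.25 ± 0.04 and 0.41 ± 0.04, and Adcy6 by 0.22 ± 0.05 and 0.23 ± 0.05. With normexp, neither Adcy3 (adjusted p = 0.146 in KCl and 0.333 in Bic by limma) nor Adcy6 (0.122 and 0.18) passed. Adcy9 did not pass with normexp in Bic (adjusted p = 0.116 by limma), nor Adcy6 with spike-in scaling in Bic (adjusted p = 0.197 by limma). Gnas, the Gs alpha subunit, rose by 0.13 in KCl (-0.092 with spike-in scaling, -0.0599 with normexp) and differed by 0.03 in Bic, without passing there. Adcy1 fell by 0.20 in Bic and differed by -0.03 in KCl without passing, while its 2 other probes were 0.29 and 0.45 higher in KCl. The Adcy1 fall in Bic did not pass with spike-in scaling (adjusted p = 0.229 by limma) or with the mean of its probes (-0.13, adjusted p = 0.119 by limma). Adcy5 and Adcy7 passed in neither comparison, nor did Gnal by its brightest probe, while another Gnal probe was 1.01 higher in KCl and the mean of its probes 0.39 higher (adjusted p = 2.15e-05 by limma). Adcy4 and Adcy10 were not measured. The plot of this list shows each gene.

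**Figure D3:**
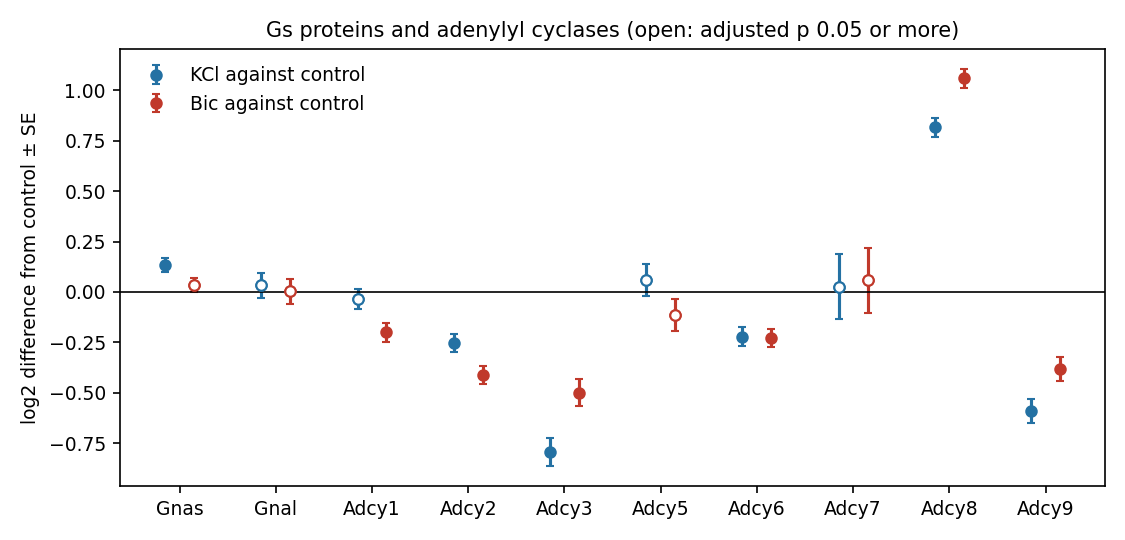
Log2 difference from control ± SE for the 10 measured genes of Gs proteins and adenylyl cyclases, KCl (blue, left of each pair) and Bic (red, right), 3 arrays a group; open points had an adjusted p of 0.05 or more. Adcy8 is the highest in both treatments (0.82 in KCl, 1.06 in Bic) and Adcy3 the lowest (-0.79 in KCl, -0.50 in Bic).

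Further along the pathway, of 11 measured cyclic AMP phosphodiesterases 6 rose and 2 fell in KCl (72.7% called), and 5 rose and 5 fell in Bic (90.9%). Pde1c rose by 1.93 log2 units in KCl and 1.02 in Bic, Pde4d by 1.47 and 0.72, and Pde10a by 1.05 and 0.71, although a second, mostly undetected Pde10a probe gave -0.60 in KCl. Pde4a fell by 0.83 and 0.64. Of 11 genes for protein kinase A, its inhibitors and Epac, 7 rose and 2 fell in KCl (81.8% called), and 4 rose and 2 fell in Bic (54.5%). The regulatory subunit Prkar2a rose by 1.81 and 1.56 and the inhibitor Pkib by 0.65 and 0.28. The catalytic subunit Prkacb rose by 0.44 and 0.28, Rapgef3 (Epac1) rose by 0.49 in KCl and fell by 0.11 in Bic, and the subunit Prkar2b fell by 0.39 in KCl and 0.28 in Bic. The Rapgef3 fall in Bic did not pass with spike-in scaling (adjusted p = 0.519 by limma) or quantile normalisation (adjusted p = 0.0723 by limma). Of 6 arrestins and receptor kinases, which switch off activated receptors, 3 rose and 3 fell in KCl (100% called), and 1 rose and 2 fell in Bic (50%). Grk5 rose by 1.70 and 0.87, Arrb1 by 0.42 in KCl, and Grk4 fell by 0.52 and 0.26 (0.43 higher in KCl with normexp). Grk3 fell by 0.28 and 0.70 by its brightest probe, but 1 of its other probes was 0.79 and 0.78 higher. The 5 inhibitory G proteins of the Gi, Go and Gz classes gave 4 rises in KCl (Gnai1 0.44, Gnaz 0.26, Gnai3 0.22 and Gnao1 0.18). None of the 4 passed with normexp or with spike-in scaling. With spike-in scaling Gnai1 was 0.22 (adjusted p = 0.15 by limma) and Gnaz 0.04 (adjusted p = 0.719 by limma), while Gnai3 and Gnao1 turned to -0.00083 and -0.0504. In Bic Gnai3 (0.10) and Gnaz (-0.09) passed, and neither did with a replicate block (adjusted p = 0.0532 and 0.0848 by limma). These are 80% of the list in KCl and 40% in Bic.

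Other receptors moved in both directions. Of 33 measured orphan class A receptors out of 58, 17 rose and 4 fell in KCl (63.6% called), with a median of 0.37, and 10 rose and 7 fell in Bic (51.5%), with a median of 0.05. Those that fell in KCl included Gpr45 (-1.34), Gpr83 (-0.80) and Gpr17 (-0.24), named after their values were seen. None of the 33 was as low as Gpr12 in either treatment. Gpr85 rose by 2.09 and 1.55, Gpr4 by 2.16 and 1.38, and Gpr19 by 1.99 in KCl. Gpr171 was not well above background on any control array. With its control signals raised to the floor used for Gpr6 where dimmer, it was 7.10-fold higher in KCl and 4.14-fold higher in Bic. With normexp its log2 difference in Bic was 1.27, which did not pass (adjusted p = 0.186 by limma). Receptors of related lipid, cannabinoid, adenosine and melanocortin families were measured for 15 of 19 genes, of which 10 rose and 3 fell in KCl (86.7% called) and 6 rose and 1 fell in Bic (46.7%). S1pr3 rose by 1.23 and 0.66, Mc4r by 1.15 and 0.27, Lpar1 by 1.04 in KCl, and S1pr2 by 0.52 in Bic, while Adora2b fell by 0.30 in Bic. S1pr5 was well above background on no KCl array. With its KCl signals raised to the same floor where dimmer, it was 1.55-fold lower there, against a log2 difference of 0.78 with normexp.

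**Figure D4:**
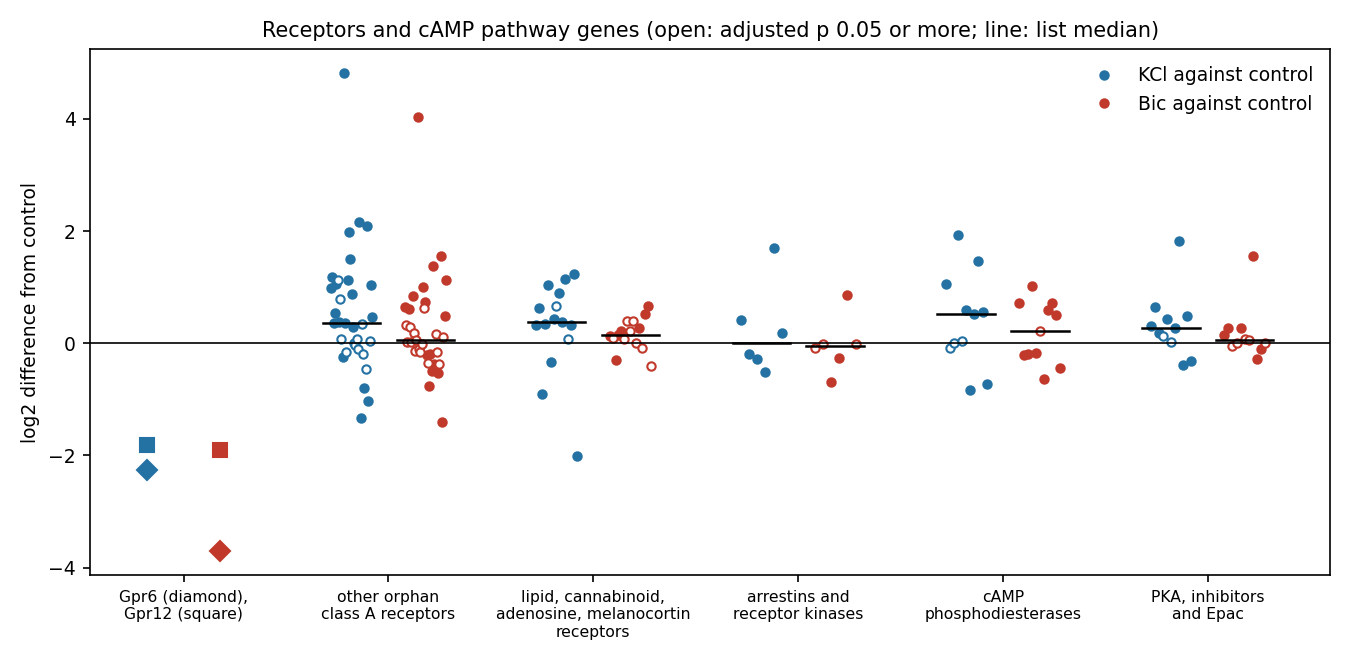
Log2 difference from control of Gpr6 (diamonds) and Gpr12 (squares) beside the measured genes of 5 lists, KCl (blue, left) and Bic (red, right); open points had an adjusted p of 0.05 or more and lines are list medians. The receptors' points run from -1.81 to -3.71 and the list medians from -0.05 to 0.53. Single list genes reach as low: S1pr5, well above background on no KCl array, stands at -2.01 in KCl. The family was chosen on Gpr6 as the lowest gene in Bic, so the gap to the medians is only a description.

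Because Gpr6 is best known from striatal projection neurons, 20 measured genes of those cells were examined. In KCl 12 rose and 4 fell (80% called), and in Bic 8 rose and 5 fell (65%). The median log2 difference of the list was 0.51 in KCl and 0.05 in Bic. The genes named here all rose by their brightest probes, so they do not stand for those that fell. Penk, the enkephalin precursor of indirect pathway neurons, rose by 1.93 in KCl and 2.18 in Bic, and Drd1, the dopamine receptor of the direct pathway, by 1.45 in KCl. Arpp21 rose by 2.86 and 2.46 by its brightest probe, but its other 2 probes gave -0.76 and -1.17 in KCl. Isl1 was not well above background in control. With its control signals raised to the floor used for Gpr6 where dimmer, it was 1.79-fold higher in KCl and 1.45-fold in Bic. In Bic 1 of 3 arrays was well above background. With normexp its log2 differences were 1.93 in KCl and 0.36 in Bic, and neither passed. Of 10 genes for the amyloid precursor protein and its secretases, linked to Gpr3, 3 rose and 5 fell in KCl (80% called) and 1 rose and 2 fell in Bic (30%). The gamma-secretase subunits Aph1b, Aph1c, Psen2 and Aph1a fell by 0.55, 0.55, 0.47 and 0.42 in KCl, with Aph1c and Aph1a at 0.48 and 0.54 under normexp. Of the other measured subunits, named after their values were seen, Psenen rose by 0.35 in KCl and Ncstn differed by 0.04 without passing. Another Aph1b probe was 0.43 higher in KCl, and Aph1a did not pass with slide as a block (adjusted p = 0.064 by limma). In Bic, Aph1c fell by 0.43 and Psen2 by 0.19, and Bace1 rose by 0.09, which did not pass with a replicate block (adjusted p = 0.0856 by limma).

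For markers of the cells in culture, the shares over all genes were 71.8% called in KCl and 44.4% in Bic. Single markers differed from control by -0.69 to 1.07 log2 units in KCl and by -0.87 to 0.78 in Bic. Of 12 neuronal markers, 7 rose and 1 fell in KCl (66.7% called) and 2 rose and 3 fell in Bic (41.7%). Their mean scaled level was 2.80 to 2.84 in KCl, 2.67 to 2.73 in Bic and 2.63 to 2.68 in control. Astrocyte markers (9 genes) gave 4 rises and 3 falls in KCl (77.8% called) and 4 falls in Bic (44.4%). Their means were 2.57 to 2.69 in KCl, 2.38 to 2.41 in Bic and 2.54 to 2.60 in control. Oligodendrocyte markers (8 genes) gave 6 rises and 2 falls in KCl (100% called) and 1 rise and 4 falls in Bic (62.5%). Their means were 1.45 to 1.50 in KCl, 1.14 to 1.21 in Bic and 1.21 to 1.27 in control. Of 5 vascular markers, 4 rose and 1 fell in KCl (100% called) and 2 fell in Bic (40%). Their means were -0.85 to -0.71 in KCl, -1.20 to -1.16 in Bic and -1.12 to -1.09 in control. Of 4 measured microglia markers 1 rose in KCl (25% called) and none was called in Bic. Their means were -1.47 to -0.88 in KCl, -1.80 to -1.17 in Bic and -1.44 to -1.38 in control. Mog, Itgam, P2ry12, Tmem119, Pecam1 and Cldn5 did not pass the filter on dim probes. The part of these markers in the receptors' values was not tested.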

How the data were processed

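RNA of 9 cultures was labelled with Cy3 and hybridised singly to Agilent mouse arrays, per the labels' protocols. The processed signal intensity, which the authors deposited, came from Agilent Feature Extraction (10.7.3.1 per the file headers, 10.5.1.1 per the submitters' processing notes); it was background-subtracted and not normalised between arrays. The deposited value table equalled it on all 45018 features of each array. Raw signal and background intensity, also deposited, served an alternative correction.

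From log2 intensity, each array's 75th percentile over 43379 non-control spots was taken away. Outlier spots were left out (39 values). Of 41174 probes, 26888 were named through RefSeq, for 18327 genes. A probe was kept where all arrays of some group marked it well above background, and the brightest kept probe stood for a gene. limma 3.58.1 in R 4.3.3 was fitted to all 9 arrays, group as the only term (6 residual degrees of freedom, prior 1.76), two-sided, with Benjamini-Hochberg adjustment over 14062 genes within each comparison; the procedure was tested on simulated data. Errors are limma's SE unless given as SD; precision is limited by the number of arrays. The sources used here do not say whether replicates come from separate cultures, so the spread behind each p-value may be technical. The Gpr3 test that had been planned could not be run in the main fit because the probe failed the filter. Gpr3 was fitted only in the alternative without that filter.

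Named genes are all members, all genes of 3 lists (Gs proteins and cyclases, Wasf genes, activity panel), the 4 largest passing changes of each other list of receptors, pathway, striatal and secretase genes, 2 neighbours on each side, and the 5 most correlated genes. One gene that this rule names is not reported here. The members and all 16 lists (214 genes, 165 measured) were chosen with earlier results of these data known. Same-numbered arrays of Bic and control deviated together (r = 0.40, 0.26 and 0.74 for numbers 1, 2 and 3), and these numbers also share slides; KCl arrays did not (r = -0.19, -0.15 and -0.57 with control). Alternatives were normexp, quantile and spike-in scaling, no filter, mean of probes, slide or replicate as a block, a trended prior and each array left out.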

Additional observations from a re-analysis of the deposited data

How the results depend on the processing

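Gpr6 and Gpr12 stayed below control in both treatments under every alternative run, but with normexp Gpr6 in KCl did so by little more than its SE. With each array left out in turn, Gpr6 ranged from -2.33 to -2.12 (log2) for KCl minus control, from -3.88 to -3.62 for Bic minus control and from 1.37 to 1.62 for KCl minus Bic; Gpr12 ranged from -1.86 to -1.76, from -1.97 to -1.84 and from 0.03 to 0.17. The replicate block changed no call of a receptor and left 5974 genes called for Bic minus control.

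With normexp, Gpr6 was -0.64 for KCl minus control and -2.30 for Bic minus control, Gpr12 was -1.78 for Bic minus control, and 4135 genes were called for KCl, 823 for Bic and 2433 for KCl minus Bic. On KCl 1, 16 spots were dimmer than their background, and normexp lifted that array's 1st percentile to 1160 against 56.7 to 124 on the others. Without such spots, an alternative chosen after seeing the data, Gpr6 was -1.46, -2.27 and, for KCl minus Bic, 0.81, and Gpr12 was -1.78 for Bic minus control. Quantile normalisation gave Gpr6 -2.46 for KCl minus control and 1.17 for KCl minus Bic. Spike-in scaling gave -2.48 for KCl minus control and called 2504 genes for Bic, and set the median of all genes in KCl to -0.20 against 0.02. Slide as a block gave Gpr12 0.27 for KCl minus Bic, now passing. Higher genes made up 49.9% of the calls for KCl minus control (25.9% by spike-in), 39.1% for Bic minus control (58.7% by normexp, 49.8% by spike-in) and 55.6% for KCl minus Bic (19.7% by spike-in, 43.0% by quantile, 45.2% by normexp). For KCl minus control, normexp reversed Aph1a (0.54), Aph1c (0.48), Cdc40 (0.15), Gnas (-0.0599), Grk4 (0.43), Rxfp3 (0.016) and S1pr5 (0.78), spike-in Gnai3 (-0.00083), Gnao1 (-0.0504) and Gnas (-0.092), quantile Wasf3 (-0.0075), and the mean of probes Adcy1 (0.24). Among the differences of named genes, normexp weakened 46 and spike-in scaling 23, not all of which are given gene by gene above. The cause of each change other than that on KCl 1 was not tested. The Bic level of Gpr6 and all levels of Gpr3 are limited by signal over background.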
